A study of Mus musculus with 192 samples.

Results

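The microRNAs (miRs) of retinoic acid (RA)-treated mouse embryonic stem cells (mESCs) were compared between 96 h and 48 h of RA. The comparison uses 8 small RNA libraries, 4 at 96 h and 4 at 48 h, of the 32 small RNA libraries of the series. All 8 come from the E14 line with a wild-type genotype, which was kept in 2i medium with LIF and then moved to N2B27 basal medium with 0.25 µM all-trans RA, so that both groups carry the treatment and differ in its duration. Fresh medium was given at 48 h. Each time point was sampled in differentiation runs 3, 5, 6 and 7, which the labels number as biological replicates, and a run links its 96 h library to its 48 h library. The labels place run 3 in a different set of differentiations from runs 5, 6 and 7. Each mature miR was counted once, with the highest count over its precursors, and 751 of the 1978 mature miRs listed had a mean count above 10 over the 8 libraries. miR-6952-3p and miR-31-3p were the closest above this minimum (mean count 10.1 each), and miR-188-3p (10.0) and miR-466m-5p (9.88) the closest that were left out. The libraries are of unsorted cells, and RA cultures of this line hold extraembryonic endoderm-like and ectoderm-like cells side by side. A change in a library can therefore come from more or fewer cells of a type or from more or less RNA per cell, and these cannot be told apart.

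A miR is a short RNA that is cut from a hairpin, loaded into an Argonaute protein and guided to mRNAs by its seed, the bases near its 5′ end that pair with sites in the 3′ UTR. Bound mRNAs are translated less and degraded faster, and miRs that share a seed can act on the same mRNAs. In mESCs the miR-290-295 and miR-302 clusters make up much of the miR pool and support the rapid cell cycle, whereas differentiating cells gain miRs of the lineage they enter.

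Depth was 3615684 to 8641712 miR counts per library. The miR composition of both libraries of run 7, and of the 48 h library of run 6, stood apart from the rest. Before any normalisation beyond library size, miR-17-5p, a member of the miR-17-92 cluster that promotes proliferation, had 47010, 39980, 22850 and 140 CPM (counts scaled to the same total in every library) in runs 3, 5, 6 and 7 at 96 h, against 31620, 15810, 1401 and 185 CPM at 48 h. miR-148a-3p ran the other way, with 17950, 21640, 40030 and 421300 CPM at 96 h, against 21560, 14370, 70990 and 173300 CPM at 48 h. The 8 most abundant miRs of a library took 31.2% to 32.2% of its counts at 96 h in runs 3, 5 and 6 and 67.3% in run 7, against 34%, 49.6%, 61.4% and 69.7% at 48 h. Counts over all miRs and over most lists of miRs are therefore also given for runs 3 and 5 only, and many named miRs that were not called there are given. What part the composition of runs 6 and 7 has in a result was not tested beyond these values.

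**Figure D1:**
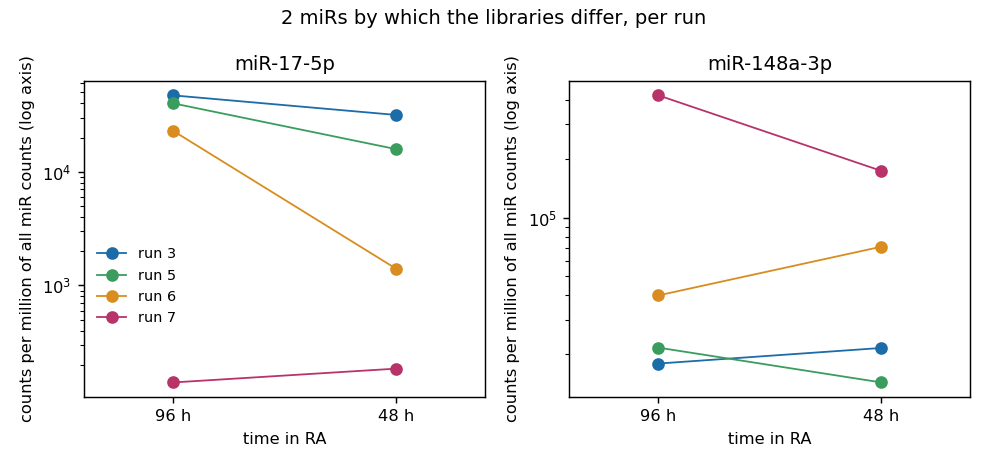
CPM of miR-17-5p and miR-148a-3p (y axis, log scale) in each small RNA library, with the 96 h libraries to the left of the 48 h libraries. Run 7 has 140 and 185 CPM of miR-17-5p, against 22850 to 47010 CPM in the other 96 h libraries.

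The mature sequences of miRs that the results turn on are shown here, since members of a seed group did not all move alike. Sequences are those of RefSeq on GRCm38.p6, 5′ to 3′, with the seed (bases 2 to 8) in capitals. Of the 751 miRs tested, 614 had a RefSeq sequence. Both miR-99a-5p and miR-100-5p carry the seed ACCCGUA and rose at 96 h, and miR-10b-5p and miR-10a-5p, whose seeds are alike, did not change alike.
miR-99a-5p: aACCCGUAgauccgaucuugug
miR-100-5p: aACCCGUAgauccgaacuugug
miR-125b-5p: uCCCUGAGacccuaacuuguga
miR-10b-5p: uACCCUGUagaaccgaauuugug
miR-10a-5p: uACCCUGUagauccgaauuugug
miR-135a-5p: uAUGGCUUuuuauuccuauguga
miR-206-3p: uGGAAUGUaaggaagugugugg
miR-214-3p: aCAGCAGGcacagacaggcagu
The mESC miRs below fell at 96 h. The seed AAGUGCU is shared by miR-290-295 and miR-302 members, and CUCAAAC by miR-290a-5p, miR-292a-5p and miR-293-5p.
miR-295-3p: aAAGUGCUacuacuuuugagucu
miR-302b-3p: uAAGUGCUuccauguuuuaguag
miR-302d-3p: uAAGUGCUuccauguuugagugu
miR-292a-5p: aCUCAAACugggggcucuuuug
miR-293-5p: aCUCAAACugugugacauuuug
The last set fell as well, other than miR-204-5p. miR-200b-3p and miR-141-3p stand for the seed groups of the miR-200 family, and miR-211-5p is shown beside miR-204-5p, which has the same seed and did not pass the test.
miR-200b-3p: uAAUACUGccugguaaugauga
miR-141-3p: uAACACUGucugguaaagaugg
miR-142a-3p: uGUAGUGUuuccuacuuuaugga
miR-211-5p: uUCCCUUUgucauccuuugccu
miR-204-5p: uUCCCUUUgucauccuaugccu
miR-196b-5p: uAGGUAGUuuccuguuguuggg

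At 96 h against 48 h, 5 of 10 tested members of the miR-99, miR-100 and miR-125 families rose. So did 10 of 16 miRs of muscle and mesenchyme and 32 of 65 miRs named like those of the Sfmbt2 intron cluster. All 14 tested miRs of the miR-290-295 cluster of undifferentiated mESCs fell, as did all 7 of the miR-200 family. Of 9 miRs of blood and endothelium, 4 fell, the arms of miR-142a and miR-150. Of the 751 miRs, 107 rose (14.2%) and 104 fell (13.8%) at an adjusted p under 0.05 from edgeR with the run as a block, 211 or 28.1% in all, with a median log2 fold change of 0.05. In runs 3 and 5 only, 54 of 748 rose (7.22%) and 65 fell (8.69%). Of the 107 that rose, 51 also rose there (47.7% of the 107 and 94.4% of the 54), and of the 104 that fell, 60 did (57.7% of the 104 and 92.3% of the 65). The 24 miRs with the largest changes among those with a mean count above 50 all kept their direction and call there. Named miRs that were called over the 4 runs but not there included miR-216a-5p, miR-217-5p, miR-129-2-3p, miR-199a-3p, miR-199b-3p, miR-467e-5p, miR-503-3p and miR-152-3p among those that rose. Among those that fell they included miR-182-5p, miR-96-5p, miR-128-3p, miR-128-1-5p, miR-375-3p, miR-192-5p, miR-148a-5p, miR-615-5p, miR-23b-5p, miR-135b-3p, miR-1946a, let-7j and let-7g-5p. The 4 libraries at 96 h lay all above the 4 at 48 h for 58 miRs (7.72%) and all below for 46 (6.13%). Without run 5, 65 rose and 67 fell, and without the block only miR-99a-5p was called. With scaling to library size alone, the median of all miRs moved to 0.76, and 190 rose and 34 fell.

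**Figure D2:**
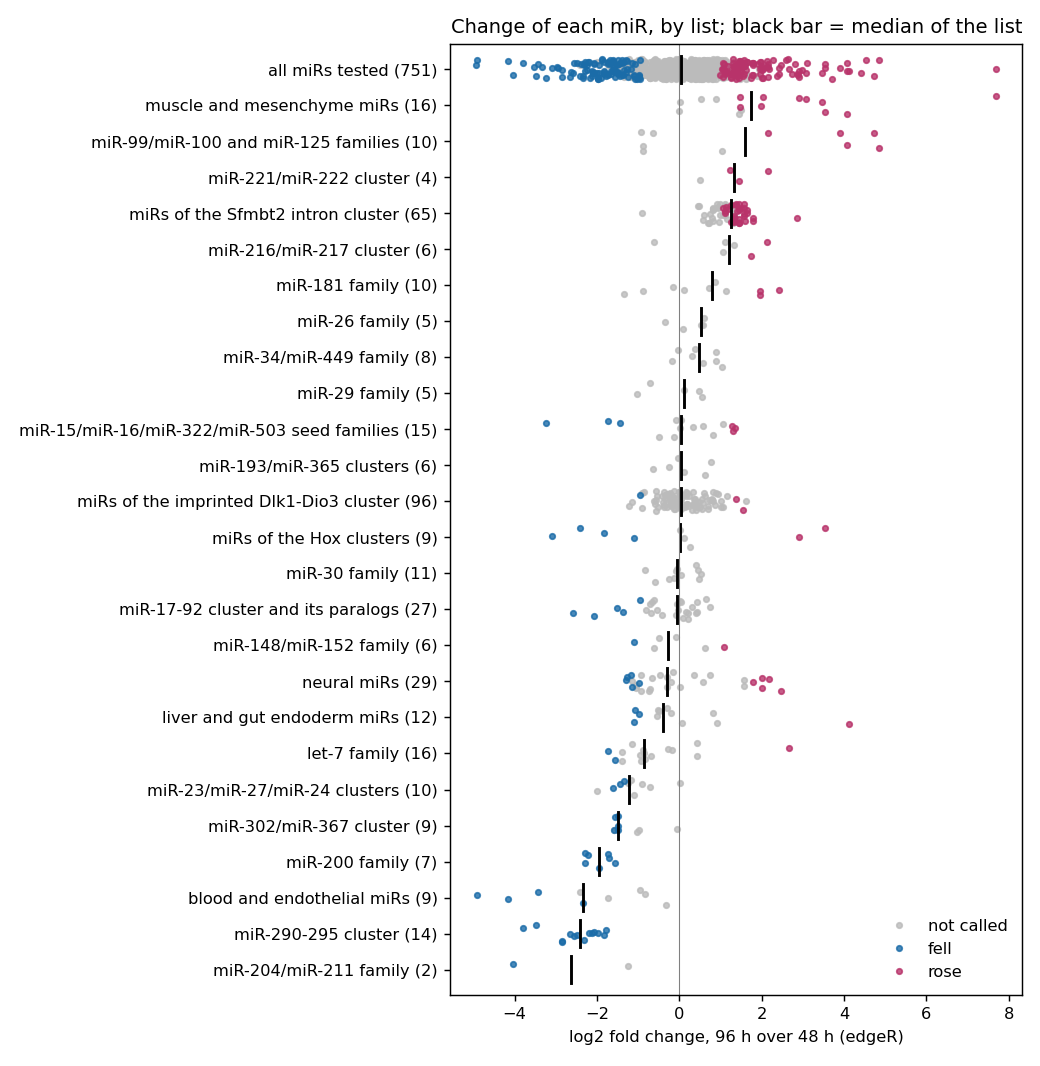
Log2 fold change at 96 h over 48 h (x axis) of each tested miR, in rows for all 751 miRs and for families, clusters and cell type lists, with a bar at the median of each row and called miRs coloured. The miR-290-295 row lies wholly below 0 with a median of -2.40, and the miR-99, miR-100 and miR-125 row has a median of 1.6. miR-214-5p, which had no count at 48 h, is drawn at its fitted value, which is no bound.

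Among miRs whose 96 h and 48 h libraries did not overlap, the largest rise was that of miR-99a-5p, whose hairpin lies at chr16:77598936-77599000 on GRCm38 (plus strand) in an intron of the long noncoding RNA gene Mir99ahg. miR-99a-5p had 8404, 3116, 4044 and 7800 CPM, normalised with edgeR's TMM factors as all CPM from here on, in runs 3, 5, 6 and 7 at 96 h, against 317, 77.9, 211 and 238 CPM at 48 h. Every 96 h library was far above every 48 h library (log2 fold change 4.84, standard error (SE) 0.38, edgeR adjusted p = 1.4e-05, and 5.04 in runs 3 and 5 only). Mir99ahg also holds the hairpins of let-7c-1 and miR-125b-2. miR-125b-2-3p had 174, 63.1, 82.9 and 37.1 CPM at 96 h, against 7.32, 1.65, 5.21 and 7.54 CPM at 48 h, again without overlap (4.07, SE 0.52, edgeR adjusted p = 0.00031). let-7c-1-3p, the passenger arm of that let-7 hairpin, had 19.2, 4.57, 4.51 and 5.17 CPM at 96 h, against 1.74, 0.733, 1.4 and 0.628 CPM at 48 h (2.67, SE 0.54, edgeR adjusted p = 0.0035). The far more abundant let-7c-5p, with a mean of 261 CPM at 96 h against 191 CPM at 48 h, did not pass the test (0.43, edgeR adjusted p = 0.38).

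miR-125b-5p, the mouse relative of the Caenorhabditis elegans timing miR lin-4, is cut from hairpins on chromosomes 9 and 16, and its counts do not tell them apart. It had 1241, 416, 245 and 44.6 CPM at 96 h, against 69.5, 27.8, 12.6 and 5.65 CPM at 48 h. The level was higher at 96 h within every run, while the 96 h library of run 7 lay below the 48 h library of run 3 (3.89, SE 0.40, edgeR adjusted p = 0.00015). miR-100-5p, which differs from miR-99a-5p outside the seed and is encoded beside miR-125b-1 on chromosome 9, had 1837, 257, 528 and 2903 CPM at 96 h, against 111, 73.7, 301 and 663 CPM at 48 h (2.16, SE 0.49, edgeR adjusted p = 0.0075). Members encoded in the miR-99b and miR-125a locus, and the passenger arm miR-125b-1-3p from chromosome 9 (1.04, edgeR adjusted p = 0.21), did not pass the test. miR-99b-5p, with the seed of miR-99a-5p, had a log2 fold change of -0.89 (edgeR adjusted p = 0.088), and miR-125a-5p, with the seed of miR-125b-5p, -0.88 (edgeR adjusted p = 0.091). Over both families, 5 of 10 tested members rose and none fell, with a median of 1.6, and the counts were the same in runs 3 and 5 only (median 2.27). The median log2 ratio of the list was 3.54 in run 3, 0.86 in run 5, 0.21 in run 6 and 0.82 in run 7, and without run 3 the fitted median was 0.95, with 5 up and 1 down. In cytosolic RNA of runs 5, 6 and 7, where 33% of 11539 genes rose and 32.3% fell, Mir99ahg had 3.23, 2.28 and 2.38 CPM at 96 h, against 0.105, 0 and 0.212 CPM at 48 h (4.56, SE 0.65, edgeR adjusted p = 2.2e-05).

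**Figure D3:**
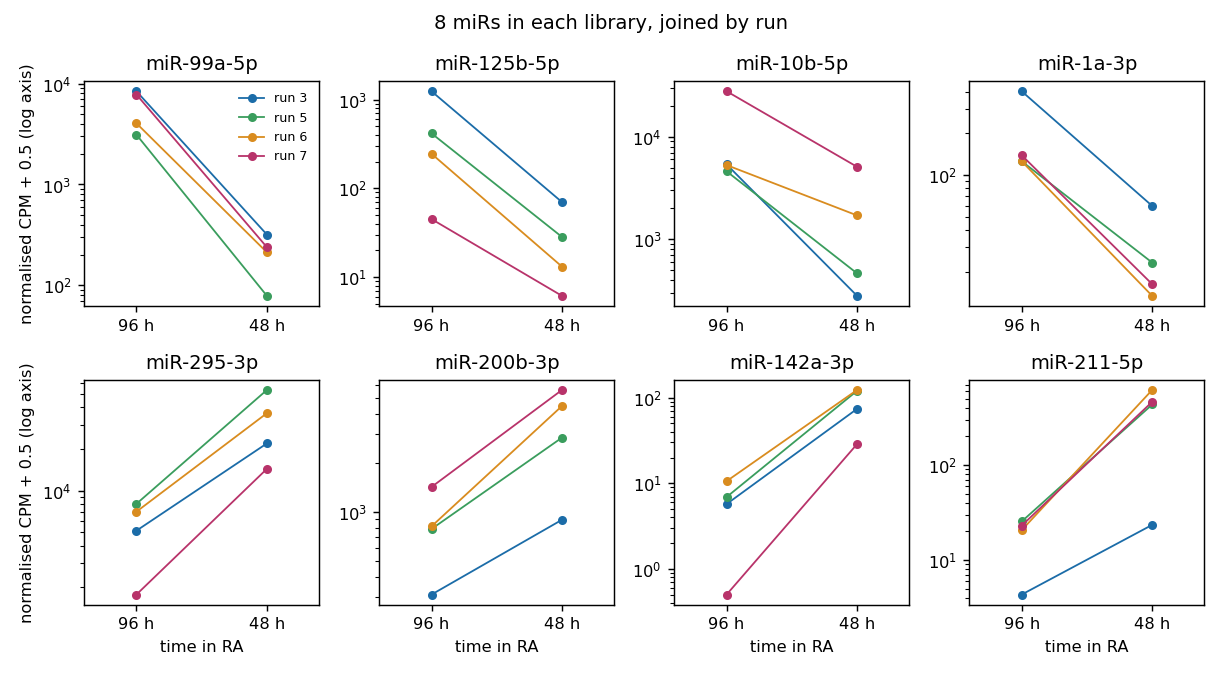
Normalised CPM plus 0.5 (y axis, log scale) of 8 miRs in each library, 96 h to the left of 48 h, with a line joining the libraries of a run. miR-99a-5p, miR-125b-5p, miR-10b-5p and miR-1a-3p are higher at 96 h in all 4 runs, and miR-295-3p, miR-200b-3p, miR-142a-3p and miR-211-5p are lower in all 4.

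A second pair of large rises came from hairpins in introns of Rmst, a long noncoding RNA gene of neural progenitors. miR-1251-5p (hairpin at chr10:92137140-92137223, minus strand) had 30.3, 11.2, 13 and 39.9 CPM at 96 h, against 2.27, 0.916, 0.200 and 0 CPM at 48 h (4.53, SE 0.62, edgeR adjusted p = 0.00033). miR-135a-2-3p (chr10:92072086-92072185, minus strand) had 67.0, 35.3, 29.9 and 63.0 CPM at 96 h, against 19.2, 3.30, 2.41 and 6.28 CPM at 48 h (2.99, SE 0.45, edgeR adjusted p = 0.00051). Neither miR had overlapping groups. miR-135a-5p, which can also come from a hairpin on chromosome 9, had 550.8, 196.2, 169.4 and 9.396 CPM at 96 h, against 60.8, 8.61, 2.81 and 0.628 CPM at 48 h, higher at 96 h in all 4 runs (4.41, SE 0.53, edgeR adjusted p = 0.0003). Rmst RNA was under the count minimum of the cytosolic RNA. miR-3099-3p, from an intron of Usp29, had 27.8, 32.5, 24.7 and 20.7 CPM at 96 h, against 6.45, 1.47, 1.2 and 0.628 CPM at 48 h (3.71, SE 0.55, edgeR adjusted p = 0.00051).

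The miRs of the Hox clusters, which lie among the homeobox genes that pattern the body axis and respond to RA, moved both ways: 2 of 9 rose, 4 fell, and the median was 0.01 (0.34 in runs 3 and 5 only, with 2 up and 3 down). Scaling to library size alone gave 2 up and 2 down (median 0.7). miR-10b (chr2:74726070-74726137, introns of Hoxd3 and Hoxd4) rose on both arms. miR-10b-5p had 5366, 4597, 5288 and 27760 CPM at 96 h, against 279, 463, 1706 and 5082 CPM at 48 h (2.91, SE 0.45, edgeR adjusted p = 0.00064). At both times run 7 was far above the other runs, and within each run the level was higher at 96 h. miR-10a-5p, which carries the same seed and lies in the HoxB cluster, had a log2 fold change of 0.01 (SE 0.36). miR-196b-5p, whose hairpin overlaps a Hoxa9 exon at chr6:52230081-52230165 (minus strand), had 19.6, 45.6, 52.0 and 26.8 CPM at 96 h, against 87.5, 402, 471 and 384 CPM at 48 h, without overlap (-3.08, SE 0.39, edgeR adjusted p = 0.00031). miR-196a-1-3p (-2.42), miR-196a-5p (-1.83) and miR-615-5p (-1.09) also fell. In cytosolic RNA, Hoxd3 rose (1.41, SE 0.30), Hoxd4 rose (1.65, SE 0.34) and Hoxa9 fell (-1.67, SE 0.32).

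Of 16 tested miRs of muscle and mesenchyme, 10 rose and none fell, with a median of 1.74 (7 rose in runs 3 and 5 only, median 1.34). In a fit of all 32 libraries, where 12 of them passed the count minimum, 5 rose (median 1.32). miR-1a-3p, which promotes the differentiation of heart and skeletal muscle, had 403.8, 125.4, 125.4 and 138.6 CPM at 96 h, against 59.2, 22.7, 12.8 and 15.7 CPM at 48 h, without overlap (2.91, SE 0.36, edgeR adjusted p = 0.00031). miR-133a-3p, transcribed together with miR-1a, had 68.2, 26.2, 16.1 and 0.470 CPM at 96 h, against 9.06, 2.38, 0.802 and 0 CPM at 48 h (3.46, SE 0.49, edgeR adjusted p = 0.00044). miR-206-3p, the skeletal muscle relative of miR-1a, had 17, 8.54, 18.2 and 72.3 CPM at 96 h, against 3.14, 0.733, 3.01 and 4.40 CPM at 48 h (3.07, SE 0.45, edgeR adjusted p = 0.00051). miR-214-3p, from an exon of Dnm3os, a noncoding RNA of skeletal mesenchyme that also carries miR-199a-2, had 12.2, 16.3, 11.2 and 5.17 CPM at 96 h, against 1.39, 1.28, 1.00 and 0 CPM at 48 h (3.53, SE 0.52, edgeR adjusted p = 0.00051). The levels of the last 3 were low, but only those of miR-133a-3p overlapped between the times.

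miR-199a-5p (1.99) and miR-199a-3p (1.48) rose with miR-214, and miR-199b-3p, which has the same mature counts as miR-199a-3p, is no separate measurement, so that the 10 risers hold 9 distinct sets of counts. miR-214-5p had 38, 41, 69 and 0 counts at 96 h and none at 48 h, at least 23.6-fold higher against a floor of 3 counts over the 48 h group, and the median of the list stays 1.74 with this bound. The smooth muscle miRs did not pass the test, with -0.01 for miR-143-3p and 0.52 for miR-145a-5p.

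Among 12 miRs of liver and gut endoderm, 1 rose and 3 fell (median -0.39), where 14.2% and 13.8% of all 751 miRs did. Scaling to library size alone gave 3 of the 12 up and none down (median 0.29). The riser was miR-122-5p, the main miR of hepatocytes, which had 119, 519, 930 and 8521 CPM at 96 h, against 13.9, 17.9, 82.8 and 267 CPM at 48 h. It was higher at 96 h in every run, with groups that overlapped through run 7 (4.11, SE 0.45, edgeR adjusted p = 0.00019, and 3.99 in runs 3 and 5 only). miR-192-5p (-1.08), miR-148a-5p (-1.09) and miR-375-3p (-0.98) were the 3 that fell, none of which was called in runs 3 and 5 only. No faller of the list was called without run 5 or without run 7, and 1 was called without run 3 or without run 6. miR-21a-5p, the most abundant miR at 96 h in runs 3 and 6, had a log2 fold change of 0.81 (edgeR adjusted p = 0.091).

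Of the miR-216a and miR-217 cluster, known from the exocrine pancreas, 2 of 6 rose and none fell (median 1.21). miR-217-5p had 388, 557, 499 and 575 CPM at 96 h, against 464, 73.1, 101 and 160 CPM at 48 h, so that runs 5, 6 and 7 were higher at 96 h and run 3 was lower (1.75, SE 0.51, edgeR adjusted p = 0.024). miR-216a-5p had 103, 115, 85.8 and 9.396 CPM at 96 h, against 74.6, 12.1, 4.41 and 7.54 CPM at 48 h (2.14, SE 0.68, edgeR adjusted p = 0.035). No member was called in runs 3 and 5 only or without run 5, 1 rose without run 6 or without run 7, and 5 rose without run 3 (median 2.06).

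Of the 29 tested neural miRs, 5 rose and 5 fell, where 14.2% and 13.8% of all 751 miRs did. Their median was -0.31 (5 up and 2 down in runs 3 and 5 only). With scaling to library size alone, 8 rose and none fell (median 0.39). Among those that rose were miR-219a-5p (2.48) and miR-219a-2-3p, of a miR of oligodendrocyte maturation, while miR-219a-1-3p, from the other hairpin, had 0.75 (edgeR adjusted p = 0.13). miR-219a-2-3p had 3520, 1468, 1855 and 2766 CPM at 96 h, against 1507, 408, 320 and 523 CPM at 48 h, with only the 48 h library of run 3 reaching into the range of 96 h (2.00, SE 0.36, edgeR adjusted p = 0.0017). miR-218-5p, which motor neurons make in quantity, had 2807, 820, 1158 and 1333 CPM at 96 h, against 253, 301, 651 and 462 CPM at 48 h, without overlap (1.79, SE 0.44, edgeR adjusted p = 0.012). miR-153-3p (2.17) and miR-129-2-3p (2.00) rose too. The 5 that fell were miR-128-3p (-1.27), miR-128-1-5p (-1.17), miR-182-3p (-1.3), miR-182-5p (-0.98) and miR-96-5p (-1.15), of which miR-182 and miR-96 are best known from sensory cells. The 2 miRs that define neurons and their progenitors did not pass the test, with -0.47 for miR-124-3p and -0.15 for miR-9-5p. Without run 5 no neural miR was called as falling, and 2 or 3 were without any 1 of the other runs.

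All 14 tested members of the miR-290-295 cluster fell, with a median of -2.40, and all 14 also fell in runs 3 and 5 only (median -2.39). Together they took 6.97%, 11.7%, 12.2% and 5.27% of the counts in runs 3, 5, 6 and 7 at 96 h, against 25.2%, 48.7%, 52.8% and 41.8% at 48 h. The cluster lies at chr7:3218626-3220841 (plus strand), and 7 of its 14 miRs had no overlap between the times. miR-295-3p had 5141, 8040, 7055 and 1775 CPM at 96 h, against 22000, 53580, 36390 and 14410 CPM at 48 h (-2.56, SE 0.34, edgeR adjusted p = 0.00031). miR-293-5p had 5755, 6342, 10280 and 3528 CPM at 96 h, against 23290, 57230, 64460 and 40020 CPM at 48 h (-2.84, SE 0.37, edgeR adjusted p = 0.00031). For both, the highest library at 96 h was below the lowest at 48 h.

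miR-292a-5p fell most among the abundant members, with 1.49%, 2.77%, 4.26% and 3.89% of all counts at 96 h, against 5.65%, 18.3%, 38.2% and 37.0% at 48 h (-3.48, SE 0.46, edgeR adjusted p = 0.00031). It was the most abundant miR of the 48 h libraries of runs 5, 6 and 7. miR-290a-3p, far less abundant, had 9.35, 9.25, 8.89 and 5.17 CPM at 96 h, against 23.17, 135.6, 330.3 and 126.3 CPM at 48 h (-3.80, SE 0.63, edgeR adjusted p = 0.001). miR-291b-5p had 68.3, 77.3, 61.7 and 129 CPM at 96 h, against 227, 638, 760 and 1001 CPM at 48 h (-2.85, SE 0.41, edgeR adjusted p = 0.00045). With scaling to library size alone, 12 of the 14 fell and the median was -1.71, where that of all miRs was 0.76.

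The miR-302 cluster (chr3:127545228-127545807, plus strand), which is known from primed pluripotent cells, changed less: 5 of 9 fell and none rose, with a median of -1.49 (7 of 9 in runs 3 and 5 only, median -1.31). miR-302b-3p had 579, 948, 1284 and 592 CPM at 96 h, against 1292, 2594, 3945 and 1896 CPM at 48 h, a fall in each run with a gap of only a few CPM between the groups (-1.48, SE 0.32, edgeR adjusted p = 0.0059). miR-302a-5p (-1.59), miR-302a-3p (-1.57), miR-302c-3p (-1.49) and miR-302d-3p (-1.49) also fell. All 5 tested miRs whose RefSeq sequence carries the seed AAGUGCU, from both clusters, fell, with a median of -1.84, and so did the 3 with CUCAAAC (median -2.84). The 6 miRs with AAAGUGC, the same letters shifted by a base in miR-17-5p and its relatives, had a median of 0.15 and none was called. With scaling to library size alone, no miR-302 member was called (median -0.78).

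All 7 tested members of the miR-200 family fell, with a median of -1.95 (-1.82 in runs 3 and 5 only, again 7 of 7). These miRs repress Zeb1 and Zeb2 and so keep epithelial cells from becoming mesenchymal. miR-200b-3p, from the cluster at chr4:156053905-156055750 (minus strand), had 311, 784, 814 and 1420 CPM at 96 h, against 894, 2852, 4459 and 5591 CPM at 48 h. It fell in every run, and the 96 h library of run 7 was above the 48 h library of run 3 (-1.95, SE 0.33, edgeR adjusted p = 0.0013). miR-141-3p, from chromosome 6, had 3.74, 7.93, 7.96 and 1.41 CPM at 96 h, against 18.5, 30.8, 27.3 and 15.1 CPM at 48 h, without overlap (-2.22, SE 0.41, edgeR adjusted p = 0.0021). The others ran between -1.55 for miR-200c-3p and -2.30 for miR-200b-5p and miR-200a-5p. With scaling to library size alone, 3 of the 7 fell (median -1.25).

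Of 9 miRs of blood and endothelium, 4 fell and none rose (median -2.34), and 5 fell in runs 3 and 5 only (median -2.46). miR-142a-3p, found in blood cells of all lineages and encoded in Mir142hg at chr11:87756864-87756927, had 5.21, 6.40, 10.1 and 0 CPM at 96 h, against 73.7, 120, 123 and 28.3 CPM at 48 h (-4.16, SE 0.51, edgeR adjusted p = 0.0003). Its other arm, miR-142a-5p, had 7.97, 11, 11.3 and 0.470 CPM at 96 h, against 89.5, 101, 69.9 and 32 CPM at 48 h (-3.43, SE 0.47, edgeR adjusted p = 0.00037). miR-150-5p, a miR of mature lymphocytes, had 18.7, 40.8, 33.5 and 11.3 CPM at 96 h, against 101, 232, 110 and 75.4 CPM at 48 h (-2.34, SE 0.36, edgeR adjusted p = 0.00064). All 3 had groups apart. The 4 fallers of the list were both arms of miR-142a and of miR-150. The 5 members not called were miR-451a (-2.41), miR-144-5p (-1.73), miR-155-5p (-0.95), miR-126a-3p (-0.84, edgeR adjusted p = 0.071) and miR-126a-5p (-0.33).

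miR-211-5p, encoded in an intron of the melanocyte gene Trpm1 (chr7:64205806-64205911), had 3.84, 25, 20.2 and 22.6 CPM at 96 h, against 23, 433.8, 618.1 and 463.6 CPM at 48 h. The fall held in each run, though run 3 was far lower than the others at both times (-4.04, SE 0.46, edgeR adjusted p = 0.00023, and -3.38 in runs 3 and 5 only). miR-204-5p, with the same seed, had 7.48, 7.42, 6.37 and 5.64 CPM at 96 h, against 3.14, 16.9, 26.7 and 37.7 CPM at 48 h (-1.24, SE 0.59, edgeR adjusted p = 0.13). Other large falls were those of miR-696 (-4.93), miR-714 (-3.33), miR-195a-3p (-3.24), miR-5126 (-2.98) and miR-712-5p (-2.94). Being lower at 96 h in all 4 runs was a condition for naming them. Of these, miR-696 had 0.492, 1.83, 1.26 and 10.8 CPM at 96 h, against 1.92, 32.6, 102 and 646 CPM at 48 h, and its fitted change was -3.34 in runs 3 and 5 only.

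The list of the imprinted Sfmbt2 intron cluster, a rodent array of many near-identical hairpins, gave the most risers of any list. Of its 65 tested miRs, 32 rose and none fell, with a median of 1.26. The list was gathered by miR name, and its members were not placed in the intron by position. Because reads match several of these hairpins, the 65 miRs hold only 54 distinct sets of counts and the 32 risers 25. Higher levels at 96 h in all 4 runs were found for 56 of the 65, against 24% of all miRs. miR-467e-5p had 642, 492, 520 and 383 CPM at 96 h, against 370, 209, 187 and 108 CPM at 48 h, without overlap (1.33, SE 0.35, edgeR adjusted p = 0.015). The median log2 ratio of the list was 0.60 in run 3, 0.99 in run 5, 1.5 in run 6 and 1.6 in run 7, where the median of all miRs lay between -0.04 and 0.11. In runs 3 and 5 only, 1 of 64 rose (median 0.86), and 13 rose without run 7 and 17 without run 5. Sfmbt2 mRNA, which encodes a Polycomb group protein, had 71.4, 76.8 and 91.4 CPM at 96 h, against 33.2, 35.7 and 26.6 CPM at 48 h in cytosolic RNA of runs 5, 6 and 7 (1.32, SE 0.14, edgeR adjusted p = 0.00012).

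The let-7 family, which promotes differentiation and whose maturation is blocked by LIN28A and LIN28B, had 1 riser and 2 fallers among 16 members. Their median was -0.86 (-0.53 in runs 3 and 5 only), and of all 751 miRs 14.2% rose and 13.8% fell. The riser was the passenger arm let-7c-1-3p, and the fallers were let-7j (-1.55) and let-7g-5p. let-7g-5p had 393.1, 375.1, 381.7 and 279.5 CPM at 96 h, against 410, 2190, 1289 and 1529 CPM at 48 h, nearly level in run 3 and lower in the other runs (-1.74, SE 0.45, edgeR adjusted p = 0.015). It was not called in runs 3 and 5 only, and the list had no called faller without run 5, 1 without run 7 and 8 without run 3 (median -1.32). Nor did the list have a called faller with scaling to library size alone (median -0.13). In cytosolic RNA, Lin28b had 97.2, 99.7 and 82.1 CPM at 96 h, against 19, 22 and 22 CPM at 48 h (2.15, SE 0.09, edgeR adjusted p = 4.5e-11), and Lin28a rose by 0.15 on the log2 scale (SE 0.04).

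Several smaller families moved in part. Of the miR-221 and miR-222 cluster, which represses the cell cycle inhibitor gene Cdkn1b, 3 of 4 rose (median 1.34), led by miR-221-3p with 2444, 1040, 913 and 157 CPM at 96 h, against 493.2, 460.8, 104.6 and 38.95 CPM at 48 h (2.16, SE 0.40, edgeR adjusted p = 0.002). Without run 3, 1 of the 4 rose, and in runs 3 and 5 only 2 did. Of the miR-181 family, 3 of 10 rose (median 0.78, or 0.35 without run 3), and 4 rose in runs 3 and 5 only. miR-181a-5p had 377.1, 131.9, 98.57 and 17.85 CPM at 96 h, against 58.7, 31.0, 14.2 and 4.40 CPM at 48 h, and miR-181c-5p, of the same seed, was the lowest of its seed group at -1.34 without being called. The miR-15 and miR-16 families were listed by name, with 5p and 3p arms together. Of this list 3 rose, all from the miR-322 and miR-503 locus on chromosome X (miR-503-5p 1.36, miR-322-3p 1.3, miR-503-3p 1.29), and 3 fell, all from the miR-195a and miR-497a locus on chromosome 11 (miR-195a-3p -3.24, miR-497a-5p -1.72, miR-195a-5p -1.45). These were 6 of 15 tested members with a median of 0.05, and in runs 3 and 5 only 2 rose and 3 fell. Scaling to library size alone gave 4 up and 1 down (median 0.76). The 3p arms named here do not carry the miR-15 seed AGCAGCA. Of 6 tested miRs whose RefSeq sequence has it, none rose and 2 fell (median 0.12), and miR-322-5p was not called (1.06, edgeR adjusted p = 0.1). Without run 5 none of the 3 rises was called, while without run 3 the falls of miR-497a-5p and miR-195a-5p were not called.

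The miR-17-92 cluster itself (chr14:115043671-115044506) had 9 tested miRs and no call, whereas 5 of the 27 members of the cluster and its paralogs fell, all from the miR-106a-363 cluster on chromosome X (chrX:52741693-52742567). miR-92a-2-5p, the passenger arm of the X-linked hairpin, had 11.6, 18.2, 16.9 and 21.6 CPM at 96 h, against 77.2, 118, 65.1 and 175 CPM at 48 h, without overlap (-2.59, SE 0.37, edgeR adjusted p = 0.00044). The list had 2 fallers without run 3 or without run 5, 8 without run 6 and 4 in runs 3 and 5 only. It had 1 with scaling to library size alone (median 0.66), and of all 751 miRs 13.8% fell in the main fit. miR-92a-3p, which both loci yield, had a log2 fold change of -0.08 (SE 0.33). The 96 tested miRs of the imprinted Dlk1-Dio3 locus on chromosome 12 had a median of 0.03 with 2 up and 1 down, and none was called in runs 3 and 5 only. The noncoding RNAs of that locus rose in cytosolic RNA, Meg3 by 1.04, Rian by 0.92 and Mirg by 0.66 on the log2 scale. Of the miR-23, miR-27 and miR-24 clusters, 3 of 10 fell (median -1.21), of which none was called in runs 3 and 5 only, without run 5 or without run 7, and 7 fell without run 3. None of the 10 was called with scaling to library size alone (median -0.47).

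The miRs that the study transfected as mimics or inhibitors were partly among the movers. Of the 11 tested, 5 rose (miR-99a-5p, miR-100-5p, miR-216a-5p, miR-467e-5p and miR-152-3p) and 5 fell, and in runs 3 and 5 only 2 rose and 2 fell. Without run 5 also 2 rose, and without run 7, 3. Scaling to library size alone gave 5 up and 1 down (median 0.67). Other than miR-216a-5p, which served as a control, the study chose them with a model that used its small RNA data, so that their counts are not independent evidence. miR-152-3p, encoded in an intron of Copz2, had 2741, 2278, 2452 and 2557 CPM at 96 h, against 1565, 965, 1075 and 1184 CPM at 48 h, without overlap (1.09, SE 0.32, edgeR adjusted p = 0.024, not called without run 5 or without run 7). miR-150-3p had 0, 0.610, 0.531 and 0 CPM at 96 h, against 5.05, 12.1, 10.2 and 16.3 CPM at 48 h (-4.91, SE 0.66, edgeR adjusted p = 0.00033). miR-135b-3p (-1.83), miR-1946a (-2.10), miR-1946b (-2.12) and miR-23b-5p (-1.60, with an edgeR adjusted p that rounds to 0.05) also fell, and miR-433-3p had -0.03 (SE 0.32).

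The 72 h libraries of the same runs placed the changes within the interval. Run 7 at 72 h held 1046530 counts, the fewest of these libraries. In a fit of the 12 libraries at 48, 72 and 96 h, 32 of 745 miRs rose (4.3%) and 47 fell (6.31%) at 72 h against 48 h, 10.6% in all, and 9 rose and 9 fell (1.21% each) at 96 h against 72 h, 2.42% in all. The calls at 72 h against 48 h numbered 79 with all runs, and 43, 28 and 14 without run 3, 5 or 6. Those at 96 h against 72 h numbered 18 with all runs, 2 without run 3, 0 without run 5 or 6 and 35 without run 7. The steps share the 72 h libraries, so that their values are given side by side. Of the 14 miR-290-295 members, 12 fell in the first step (median -1.71) and none in the second (median -0.65), and of the 7 miR-200 members 6 and none did (medians -1.26 and -0.64). No miR of the Sfmbt2 list was called in either step (medians 0.24 and 0.94). miR-99a-5p rose in both, by 3.41 and then 1.45, and so did miR-125b-5p, by 2.36 and then 1.56. miR-10b-5p rose by 2.45 in the first step and had 0.40 in the second, whereas miR-214-3p had 0.85 and then rose by 2.70. A test of the difference between the steps passed for 1 miR of 745 (0.134%), miR-7667-3p, so that for the miRs named here a difference between the steps was not shown.

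**Figure D4:**
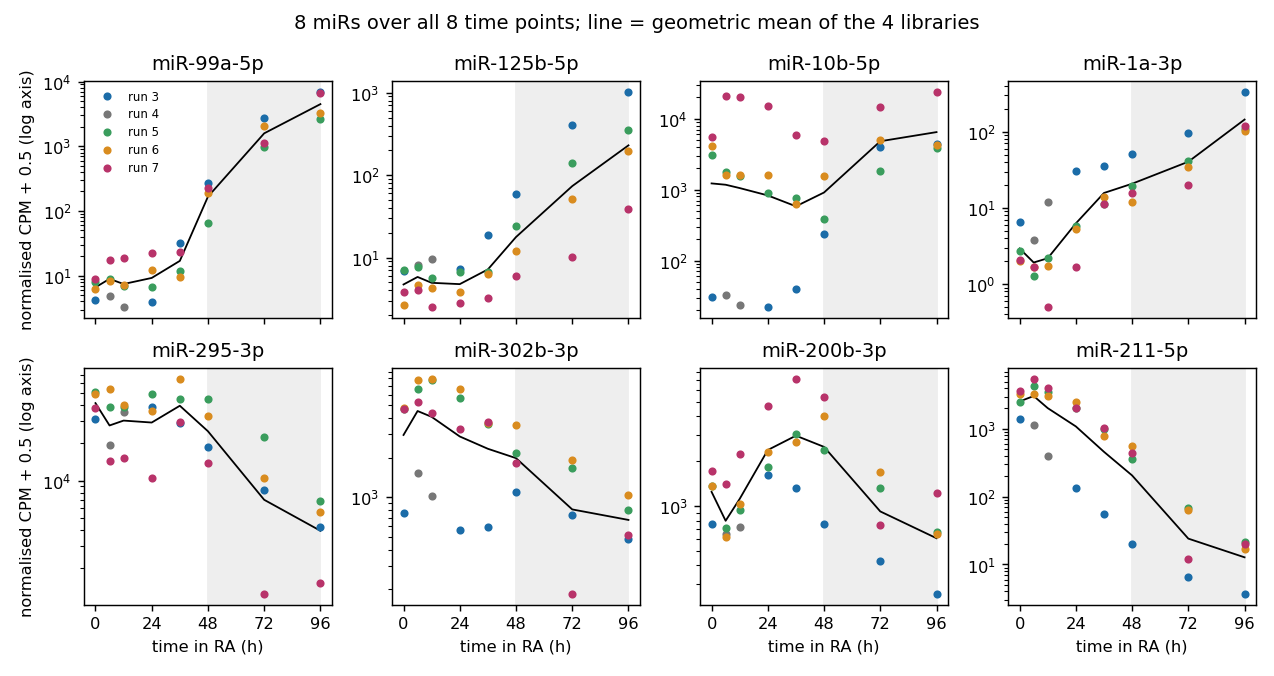
Normalised CPM plus 0.5 (y axis, log scale) of 8 miRs over the RA time course (x axis, h), with a point per library (at 6 and 12 h, run 4 stands in for run 3), a line through the geometric means and the interval from 48 h to 96 h shaded. miR-99a-5p had 3.75 to 8.44 CPM at 0 h, 65.2 to 267 CPM at 48 h and 2646 to 6938 CPM at 96 h, and miR-211-5p had 1379 to 3640 CPM at 0 h and 3.17 to 21.2 CPM at 96 h.

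Over the whole time course of 32 libraries, normalised together, the movers had different starting points. miR-99a-5p was at 3.75 to 8.44 CPM at 0 h, and miR-1a-3p at 1.53 to 6.00 CPM. miR-10b-5p instead was at 3120 to 5588 CPM in 3 of the 4 libraries at 0 h and at 30.4 CPM in the fourth, reached 235 to 4895 CPM at 48 h, and stood at 3904 to 23970 CPM at 96 h. miR-200b-3p had 755 to 1715 CPM at 0 h, 752 to 5385 CPM at 48 h and 256 to 1226 CPM at 96 h. miR-211-5p was highest at 0 h or 6 h, with 1379 to 3640 CPM at 0 h, and had 19.3 to 556 CPM at 48 h.

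The 2 arms of a hairpin come from the same transcript, and their ratio is free of the library's scale. Of 241 hairpins with both arms measured, none changed its 5p to 3p ratio at an adjusted p under 0.05 from limma (0%), and 31 had an unadjusted p under 0.05. The alternatives called 0 to 9 hairpins, the 9 without run 3. The lowest p was that of miR-150, whose log2 ratio of 5p to 3p was 8.57, 5.95, 5.89 and 5.61 at 96 h, against 4.30, 4.25, 3.41 and 2.18 at 48 h (difference 2.97, SE 0.52, limma adjusted p = 0.085). The 3p arm had no count in runs 3 and 7 at 96 h and 6 and 8 counts in runs 5 and 6, so that the ratios of 8.57 and 5.61, and with them the difference, depend on the pseudocount. miR-466i (-2.14), miR-671 (2.10), miR-494 (-2.25) and miR-216a (2.66) followed, with limma adjusted p-values of 0.22 and above.

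The genes that hold these miRs and the genes of the miR machinery were read in the cytosolic RNA of runs 5, 6 and 7. Of all 11539 genes, 33% rose and 32.3% fell, 65.4% in all. Of 22 tested host genes, 13 rose and 4 fell, with a median log2 fold change of 0.305, beside 0.01 over all 11539 genes. Slit3 (3.09) and Slit2 (1.65), the hosts of the miR-218 hairpins, rose, as did Copz2 (1.33). Mir17hg, the host of the miR-17-92 cluster, had 0.26 and Mcm7, the host of the miR-106b-25 cluster, -0.12. Of 13 processing genes, 8 rose and 1 fell (median 0.29). Ago2, an Argonaute, rose by 0.76, and the RNases Dicer1 and Drosha by 0.39 each, while Tut4, which tails let-7 precursors, fell by 0.30 and the exporter Xpo5 had 0.03.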

How the data were processed

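Total RNA including small RNA was taken from frozen cell pellets, made into NEBNext Small RNA libraries and sequenced paired-end. The authors trimmed and merged the read pairs and counted them with miRDeep2 on miRBase hairpins (mouse genome mm10, Bowtie 1.0.0-1), which splits a read over the precursors it matches, so that the deposited estimated counts need not be whole. They were rounded here. The cytosolic RNA values are expected counts per gene that the authors made with STAR 2.6.1a and RSEM 1.3.1, rounded likewise.

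Each mature miR kept the highest count over its precursors, and 751 with a mean count above 10 over the 8 libraries were fitted with edgeR 4.0.16 (R 4.3.3), using TMM factors (0.367 to 1.95) and the quasi-likelihood test with the run as a block. p-values were adjusted by Benjamini-Hochberg over all tested miRs and called under 0.05. The SE of an edgeR log2 fold change was taken as its absolute value divided by the square root of the test's F statistic. Normalised CPM use the same factors. The block follows the differentiation run that the labels give in the name of each library. The deviations of same-run libraries from their time means correlated at 0.755, 0.829, -0.157 and 0.883 in runs 3, 5, 6 and 7 over miRs. The 96 h library of run 6 correlated at 0.561 and 0.643 with the 48 h libraries of runs 3 and 5, so that the pairing rests on the labels. Ratios of 5p to 3p arms were fitted with limma 3.58.1 as log2 ratios of unscaled counts, with a pseudocount of 0.5 added to each arm. The 12 libraries at 48, 72 and 96 h, and the host and processing genes in 6 cytosolic libraries (9421101 to 16262874 counts), were fitted with edgeR in the same way. With the run as a block, precision follows how far the change between times varies from run to run, not the spread of levels between runs. Splitting of reads among near-identical miRs is not resolved, and 33 tested miRs share their counts with another.

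The text names the 12 largest rises and falls among called miRs with a mean count of at least 50. Only miRs that moved the same way in all 4 runs were taken for these. Also named are the 8 most abundant miRs at each time, the miRs that the study transfected and up to 4 members of each of 26 lists. Others were named after their values were seen. The members and lists were chosen with earlier results of these data known. Alternatives were DESeq2 1.42.0, its size factors in edgeR, library size only, other filters, no replicate block, all 32 libraries, the sum over precursors and each run left out. A fit of runs 3 and 5 only was chosen after seeing the data. The scripts were tested on simulated data.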

Additional observations from a re-analysis of the deposited data

Results flagged for a closer look

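In 28 of 238 groups of 4 libraries among the named miRs, 1 library stood apart from the other 3: its gap to the nearest, as a share of the whole range of the group on the log2 scale, passed the 95% critical value of Dixon's test, which chance does in about 1 of 20 groups. Of these groups 25 were at 96 h and 3 at 48 h, and the lone library was that of run 7 in 20, of run 3 in 7, of run 5 in 1 and of run 6 in none. The share of the range at 96 h was 0.968 for miR-30a-5p, 0.941 for miR-30e-3p, 0.917 for miR-26a-5p, 0.899 for miR-26b-5p and 0.891 for miR-26a-1-3p, families without a called member. It was 0.914 for miR-10b-5p, 0.898 for miR-10b-3p, 0.85 for miR-10a-5p and 0.844 for miR-196a-1-3p of the Hox clusters, and 0.91 for let-7c-1-3p, 0.88 for let-7j and 0.863 for let-7g-5p of the let-7 family. Among further miRs that rose it was 0.915 for miR-1a-3p, 0.881 for miR-216a-5p, 0.871 for miR-154-5p and 0.832 for miR-329-5p. Among those that fell it was 0.914 for miR-290a-3p, 0.918 for miR-497a-5p, 0.847 for miR-195a-5p, 0.883 for miR-714, 0.881 for miR-211-5p and 0.866 for miR-142a-5p. miR-337-3p (0.945), miR-365-1-5p (0.862) and miR-24-3p (0.831) were not called. At 48 h it was 0.892 for miR-211-5p, 0.878 for miR-196b-5p and 0.83 for miR-34c-3p.

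miR-7667-3p was the miR whose change at 96 h against 72 h differed from that at 72 h against 48 h, by -4.62 on the log2 scale (edgeR adjusted p = 0.03). It had 0.505, 0.512, 2.06 and 38.95 CPM in runs 3, 5, 6 and 7 at 48 h, 0.332, 0.979, 3.75 and 254.4 CPM at 72 h, and 0.186, 0.102, 0.709 and 12.43 CPM at 96 h. The call was lost with RLE size factors and without any 1 of the runs.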

How the results depend on the processing

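The direction held in every alternative for the named miRs that were called, of which the 24 largest changes were chosen to move the same way in all 4 runs. At 96 h against 48 h, 28.1% of the miRs were called, and the number stayed within 1.5 times of 211 under DESeq2 (258), RLE size factors (216), a mean count above 50 (178), no filter (230), all 32 libraries (242) and the sum over precursors (217). With library size only, 190 rose and 34 fell. In runs 3 and 5 only, 15.9% were called (119), 54 up and 65 down, with 9 calls at 72 h against 48 h, 0 at 96 h against 72 h (71 lower at an unadjusted p under 0.05) and 0 for the difference between the steps (34 unadjusted). Leaving out 1 run gave 17.5% to 26% called, 65 to 93 up and 67 to 106 down. It gave 14 to 71 calls at 72 h against 48 h (79 with all runs), 0 to 35 at 96 h against 72 h (18), 0 to 2 for the difference between the steps (1) and 0 to 9 for arm ratios (0). RLE size factors gave 11 calls at 96 h against 72 h, and 0 for the difference between the steps, which also had 0 with a mean count above 50.

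Without the replicate block, 0.133% were called at 96 h against 48 h, 1 up (miR-99a-5p) and 0 down (68 lower at an unadjusted p under 0.05), and edgeR called 0 at 72 h against 48 h (45 unadjusted), 0 at 96 h against 72 h (20) and 0 for their difference (8). Of the 24 largest changes named, 23 lost the call without the block, and miR-292a-5p lost it under DESeq2 (DESeq2 adjusted p = 0.074). All 24 kept it in the other alternatives. Of 81 named called miRs, 22 lost the call in runs 3 and 5 only, 23 with library size only, 11 without run 3, 19 without run 5, 8 without run 6 and 13 without run 7. In run 7, 860 miRs at 96 h and 901 at 48 h had a count, against 1105 to 1265 in the other libraries, while its depth lay within their range.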

Other observations

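Several families had no called member at 96 h against 48 h. These were miR-26 (5 tested, median log2 fold change 0.53), miR-29 (5, 0.12), miR-30 (11, -0.05), miR-34 and miR-449 (8, 0.48) and miR-193 with miR-365 (6, 0.04). A cluster of 28 tested miRs on chromosome X (chrX:66776757-66839125 on GRCm38) had no call either, with a median of 0.47.

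miR-21a-5p took 7.52%, 4.89%, 5.70% and 1.46% of the counts in runs 3, 5, 6 and 7 at 96 h, against 2.20%, 1.52%, 1.69% and 0.799% at 48 h. It was thus higher at 96 h in every run as a share of the library, without being called. A share is scaled to library size alone, and that scaling raised the median of all miRs, as given above.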
